A study of Danio rerio with 6 samples.

Results

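Giant transcripts were defined as records of the deposited transcript tables with an annotated length over 12000 and up to 60000 bases and an average of 1 CPM or more (the estimated count scaled to a common library total) across 6 zebrafish ventricle libraries. Of 57775 records, 204 had such a length, and 125 of these reached the CPM limit and are the members described here. The other 79 stayed under 1 CPM, 16 of them with no count in any library. Members were chosen by length and by mean CPM over both genotypes, so neither is a result, and the difference between genotypes was not part of the rule. A record high in 1 genotype alone can still pass through that genotype, and its difference is then tied to the rule.

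The libraries came from adult zebrafish (Danio rerio) that were 6 months old. The ttna+/- fish carried a truncating mutation in exon 201 of ttna, a titin gene, in the heterozygous state, in a line the labels call ttnaA, and the WT fish were their siblings. Each genotype had 3 libraries of polyadenylated RNA, and each library pooled 6 ventricles, so differences between single fish are averaged within a library. The values are from whole ventricle, in which fewer cells of a type and less RNA per cell cannot be told apart.

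A messenger RNA of this length usually encodes a very large protein. In the vertebrate heart such proteins include the ryanodine receptor, which releases calcium from the sarcoplasmic reticulum, and obscurin, which sits around the sarcomere. They also include dystrophin, which ties the cytoskeleton to the cell membrane, the nesprins, which anchor the nucleus, and the heavy chain of the motor dynein. The tables give only Ensembl transcript IDs, and 0 of the 125 member IDs were found in the available gene tables, so no member is paired with any of these genes. For the same reason no sequence is shown, and the cell type of the samples was not checked against markers.

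Library totals were 40808904 to 44412410 estimated counts in ttna+/- and 28688112 to 34140752 in WT. The gap between annotated and effective length, which depends on fragment size, was 167 to 170 bases in ttna+/- and 153 to 161 bases in WT. In neither did a ttna+/- library fall within the WT range, and values from fits that take the gap as a term are given for the medians and for the most abundant member without overlap. With 6 libraries such a fit can hardly tell the gap and the genotype apart, so its values are no correction for fragment size. The libraries ttna+/- 1, ttna+/- 3 and WT 1 stood together, holding the 3 highest values of 48.0% of members. The share was 42.5% of records of 8000 to 12000 bases and 21.8% of all 22555 records, each averaging 1 CPM or more. This grouping was picked from the same libraries, so the shares describe it and do not test it. That split crosses the genotype labels, with ttna+/- 2 and WT 1 on the side of the other genotype, and the files do not settle whether any label was exchanged. Genotype and replicate number follow the sample titles, and the WT tables as deposited carry replicate numbers 1 higher than those titles.

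Members ranged from 12001 to 30840 bases, with a median of 14019. There were 62 of up to 14000 bases, 29 of 14000 to 16000, 25 of 16000 to 20000 and 9 longer than 20000. Their mean level ran from 1.02 to 1297 CPM, with a median of 18.3 CPM. A long transcript yields more fragments per molecule, so levels of records of unlike length are set side by side in TPM, which corrects for length. On that scale the median member stood at 1.39 TPM, and the median of the 4144 transcripts of 4000 to 8000 bases, with the same CPM limit, at 1.58 TPM.

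Together the 125 giant transcripts took 0.894%, 0.481% and 0.883% of the counts in ttna+/- 1 to 3, against 0.807%, 0.518% and 0.398% in WT 1 to 3. Their summed level was 8942, 4811 and 8831 CPM in the ttna+/- libraries and 8071, 5183 and 3978 CPM in the WT libraries. The groups overlapped, with ttna+/- 1, ttna+/- 3 and WT 1 high and the other 3 libraries low. The means were 7528 ± 2354 CPM in ttna+/-, against 5744 ± 2103 CPM in WT (mean ± SD of 3 libraries), a ratio of 1.31 whose difference of 1783 CPM was smaller than either SD. No test was run on the sum, because the members were chosen with earlier results known.

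**Figure D1:**
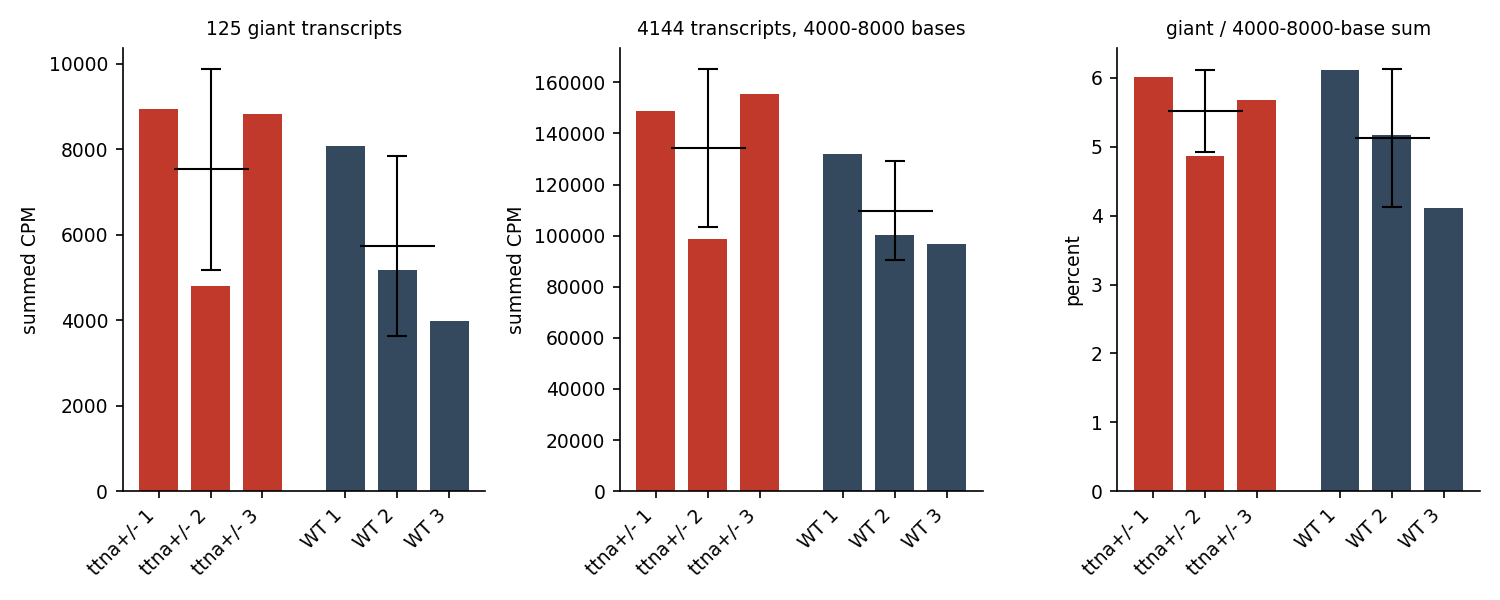
Summed CPM of the 125 giant transcripts (left), summed CPM of the 4144 transcripts of 4000 to 8000 bases (middle) and the giant sum as a percent of that reference sum (right), one bar per library, with the genotype mean and SD (n = 3) in black. In each panel ttna+/- 2 stands below ttna+/- 1 and 3, and WT 1 stands above WT 2 and 3.

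Transcripts of 4000 to 8000 bases followed the same libraries. Their sum was 148672, 98875 and 155539 CPM in ttna+/- 1 to 3, against 132125, 100239 and 96891 CPM in WT 1 to 3. Relative to this sum the giant transcripts amounted to 6.01%, 4.87% and 5.68% in ttna+/- and to 6.11%, 5.17% and 4.11% in WT. The means of the relative level were 5.52% ± 0.591 in ttna+/- and 5.13% ± 1.00 in WT (mean ± SD of 3 libraries). This ratio of 1.08 between the genotypes was well within the spread of the libraries, and the lowest value belonged to WT 3. It turned to 0.979 without WT 3 and was 1.19 without WT 1.

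A few records carried most of the giant signal. The 10 members with the highest mean CPM held between 52.2% and 62.9% of the giant sum in every library. Without them the other members summed to 4277, 1785 and 4065 CPM in ttna+/- 1 to 3, against 3551, 2119 and 1750 CPM in WT 1 to 3. The same 3 libraries stayed high, so the pattern was not that of the top records alone.

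The most abundant member was ENSDART00000165606.2, of 19846 bases. Its level was 67.5, 55.8 and 75.1 TPM in ttna+/- 1 to 3, against 81.0, 69.0 and 45.4 TPM in WT 1 to 3. The genotypes overlapped fully, at 66.1 ± 9.75 TPM in ttna+/- and 65.1 ± 18.1 TPM in WT (mean ± SD of 3 libraries). Its log2 fold change was 0.06 ± 0.22 (SE, adjusted p = 0.925 in edgeR), with the highest and the lowest value both in WT, and it was negative with library totals as scaling.

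ENSDART00000088484.7, of 20569 bases, was the second by TPM and behaved otherwise. It stood at 50.4, 13.4 and 49.8 TPM in ttna+/- 1 to 3, against 44.2, 9.99 and 9.44 TPM in WT 1 to 3. The values of ttna+/- 1, ttna+/- 3 and WT 1 were several times those of the other 3 libraries. ENSDART00000165606.2 was above it in all 6 libraries. Its log2 fold change of 0.92 ± 0.71 (SE) had an adjusted p of 0.639 in edgeR.

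The next in order was ENSDART00000149737.4, of 14310 bases, described with the genotype comparison below. ENSDART00000145068.3 followed at 25.2, 16.8 and 29.1 TPM in ttna+/- and 27.5, 15.7 and 9.87 TPM in WT. ENSDART00000144558.3 stood at 27.4, 8.78 and 30.0 TPM in ttna+/- and at 18.9, 7.28 and 8.25 TPM in WT. In both the genotypes overlapped, with log2 fold changes of 0.49 ± 0.35 and 1.00 ± 0.51 (SE) and adjusted p of 0.623 and 0.527 in edgeR.

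The remaining 5 of the 10 highest by TPM also overlapped between genotypes on that scale. ENSDART00000146394.4, of 18608 bases, had 22.2, 5.12 and 20.6 TPM in ttna+/- and 20.2, 4.08 and 3.33 TPM in WT. ENSDART00000185021.1, of 13101 bases, had 23.9, 1.47 and 15.4 TPM in ttna+/- and 5.62, 2.09 and 1.86 TPM in WT. Both followed the library split. The other three, ENSDART00000146990.2, ENSDART00000147464.4 and ENSDART00000110770.4, averaged 12.3 ± 1.70, 12.5 ± 1.64 and 11.0 ± 0.996 TPM in ttna+/-, against 10.1 ± 6.06, 9.59 ± 3.07 and 9.89 ± 2.78 TPM in WT (mean ± SD of 3 libraries). Their adjusted p in edgeR was 0.717, 0.561 and 0.691, and the lowest value of each was in WT 3. On CPM with TMM factors, explained below, ENSDART00000147464.4 did not overlap, at means of 205 CPM in ttna+/- and 154 CPM in WT.

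Below the first place, adjacent ranks were not separated by more than their spread. Neighbours from the second place to the tenth, at mean levels of 29.5 to 8.38 TPM, differed by less than the larger SD of either record within a genotype.

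The comparison of ttna+/- with WT asks which giant transcripts differ in the adult ventricle when 1 copy of ttna is truncated. None was called by edgeR, and 2 were called by DESeq2, described further on. The quasi-likelihood test of edgeR, fitted on 29950 transcripts with Benjamini-Hochberg adjustment, called 0 of the 121 members that passed its filter on low counts, with the design text's limits of 2-fold and an adjusted p of 0.05. Over all transcripts fitted the share called was 0%, with or without a limit on the fold. Among members the smallest adjusted p was 0.356.

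At an unadjusted p under 0.05 there were 8 members higher (6.61%) and 3 lower (2.48%) in ttna+/-, together 9.09% of 121. The share over all transcripts tested was 10.6% (4.78% higher, 5.83% lower). Among fitted records averaging 1 CPM or more it was 12.1% (5.27% higher, 6.80% lower). With both directions together the members were near or below the background. Their share of higher records was above it and their share of lower records below it, a split that was not tested. The number of members at this p rested on single libraries. It was 37 members (33 higher, 4 lower), or 30.1%, without ttna+/- 2. The background was then 16.5% of all tested and 19.7% of those averaging 1 CPM or more. Without WT 1 it was 29 (26 higher, 3 lower), or 24.0%, with backgrounds of 12.2% and 14.4%. Leaving out ttna+/- 1 gave 5 members (4.03%), at a background of 6.72% of all tested, and leaving out WT 2 gave 6 (4.88%), at 6.59%. It was 8 (6.45%) without ttna+/- 3, at a background of 6.24%, and 10 (8.13%) without WT 3, at 7.11%.

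On balance the fold changes leaned toward ttna+/-. The median log2 fold change was 0.33 over the 121 members fitted, against 0.09 for the 4132 fitted transcripts of 4000 to 8000 bases and 0.01 for all fitted records averaging 1 CPM or more. It was positive in 84 members and negative in 37, with 63 within 0.5 of 0, 28 over 1 and 6 under -1. These are counts over records that share the same 6 libraries and are not independent. The 28 include ENSDART00000088106.5, ENSDART00000160284.3 and ENSDART00000152768.3, which met the CPM limit only through ttna+/-. ENSDART00000015820.10, ENSDART00000153708.3 and ENSDART00000187629.1 met it only through WT, at -6.63, -5.49 and -5.80 in edgeR without the filter. They did not pass the filter and are absent from the 6 under -1. The values of all these records are tied to the selection. The median of the members was 0.61 without WT 1 and 0.11 without WT 3, and the difference from the 4000 to 8000 base median, 0.24, was 0.45 without WT 1 and 0.07 without WT 3. That difference was smaller than the SD of that difference between libraries of a genotype (0.29, on log2(CPM + 0.5)). The members' median was positive under every alternative run, from 0.10 with each library's trend on length removed to 0.88 where the gap between annotated and effective length entered the fit, and the difference was 0.11 and 0.60 in those same fits. The fit with the gap cannot separate it from genotype.

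**Figure D2:**
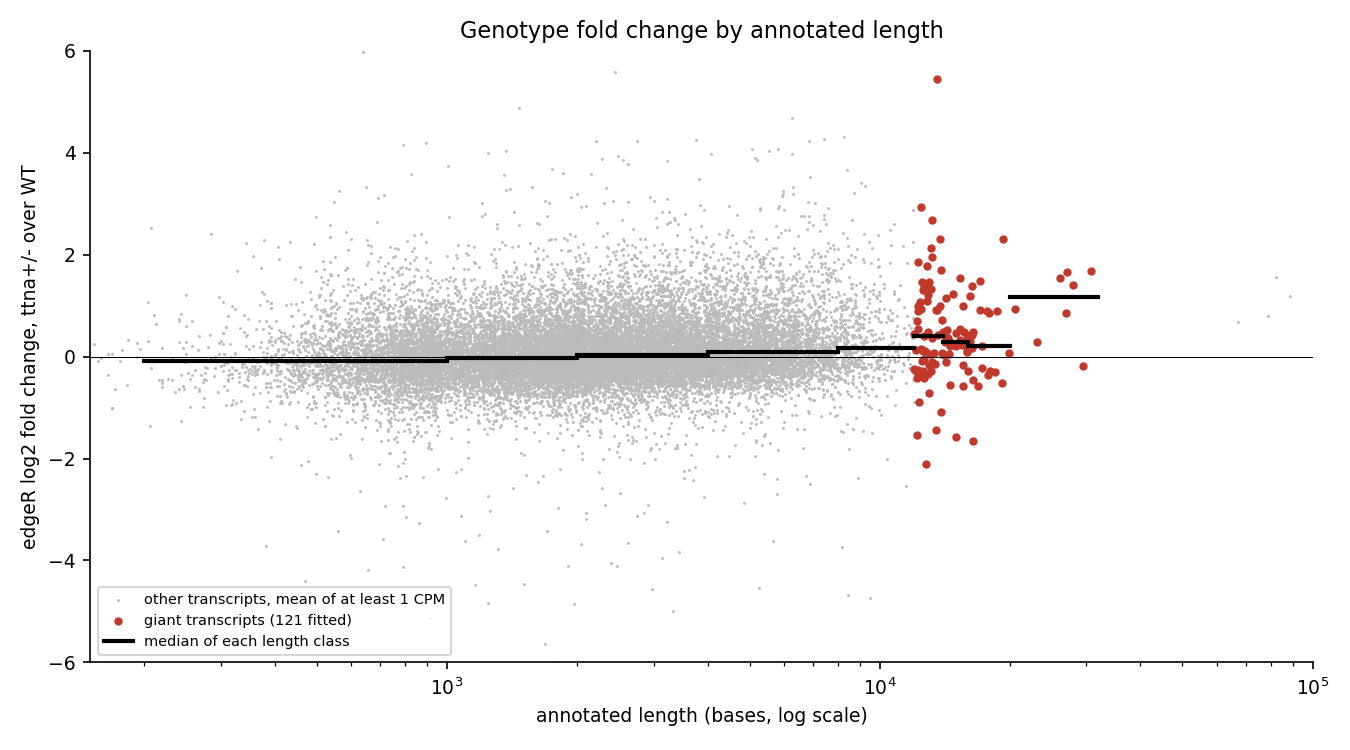
edgeR log2 fold change of ttna+/- over WT against annotated length (log scale) for records averaging 1 CPM or more, with the 121 fitted giant transcripts in red and the median of each length class as a black line. The medians lie from -0.09 below 1000 bases to 0.17 at 8000 to 12000 bases, and the giant transcripts scatter on both sides of 0 around a median of 0.33.

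Across length classes the median log2 fold change was -0.09 in records of up to 1000 bases and 0.17 in those of 8000 to 12000 bases. Within the giant transcripts it did not rise steadily. It was 0.41 up to 14000 bases, 0.28 from 14000 to 16000, 0.20 from 16000 to 20000 and 1.16 in the 8 fitted members over 20000 bases. Those 8 include ENSDART00000160284.3 and ENSDART00000152768.3, which met the CPM limit only through ttna+/-. They leave out ENSDART00000015820.10, of 25953 bases, which met it only through WT and had a log2 fold change of -6.63 in edgeR without the filter.

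Of the 5 longest members, 4 had a positive log2 fold change, and none was called. The longest, ENSDART00000160284.3 of 30840 bases, was a rare transcript with 4.28, 0.356 and 3.75 CPM in ttna+/- 1 to 3, against 1.31, 0.894 and 0.540 CPM in WT 1 to 3. Its lowest value was that of ttna+/- 2, so the genotypes overlapped, and its log2 fold change of 1.68 ± 0.85 (SE) had an adjusted p of 0.527 in edgeR. This record met the 1 CPM limit only through ttna+/-, with a mean of 2.79 CPM against 0.915 CPM in WT. Its difference is thus tied to the selection. ENSDART00000139350.4, of 26957 bases, was the most abundant of the 5, at 113, 69.8 and 121 CPM in ttna+/-, against 99.8, 39.2 and 42.3 CPM in WT.

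The 2 others with a positive value were ENSDART00000148520.3, of 27036 bases, and ENSDART00000152768.3, of 27998 bases. The first had 20.3, 3.22 and 11.2 CPM in ttna+/-, against 2.70, 3.82 and 4.79 CPM in WT. ENSDART00000152768.3 had 3.39, 0.928 and 2.83 CPM in ttna+/-, against 1.47, 0.351 and 1.07 CPM in WT. It too met the 1 CPM limit only through ttna+/-, with a mean of 2.38 CPM against 0.966 CPM in WT, so its difference is likewise tied to the selection. ENSDART00000152847.2, of 29476 bases, had the only negative value among the 5, -0.19 ± 0.46 (SE). Its levels of 3.36, 2.57 and 2.27 CPM in ttna+/- lay within the WT range of 1.29 to 4.67 CPM.

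Without overlap between the genotypes, 3 members (2.40%) were higher and 10 (8.0%) lower in ttna+/-. The same was true of 4.50% and 17.1% of all records averaging 1 CPM or more. The giant transcripts thus separated by genotype in a smaller share of cases than the records as a whole, in both directions, though this difference was not tested. With TMM factors, which set the bulk of transcripts level between libraries, 4 members were higher and 6 lower, against 6.53% and 12.0% of all records. The member added among the higher ones was ENSDART00000147464.4. The row after it holds ENSDART00000172634.2, and the counts of this pair are given below. Under both scalings the lower ones included ENSDART00000015820.10, which met the CPM limit only through WT.

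ENSDART00000149737.4, of 14310 bases and the third by TPM, was the most abundant member without overlap between the genotypes. It stood at 461, 447 and 468 CPM in ttna+/- 1 to 3, against 329, 347 and 341 CPM in WT 1 to 3. All 3 ttna+/- libraries lay above all 3 WT libraries, and neither ttna+/- 2 nor WT 1 stood apart from its own genotype. The means were 459 ± 10.5 CPM in ttna+/-, against 339 ± 8.94 CPM in WT (mean ± SD of 3 libraries). The log2 fold change was 0.51 ± 0.14 (SE), with an unadjusted p of 0.00945 and an adjusted p of 0.365 in edgeR, and an adjusted p of 0.0355 in DESeq2, below a 2-fold change in both. The log2 fold change was 0.24 (adjusted p = 0.775 in edgeR) with each library's trend on length removed and 0.32 (adjusted p = 0.877 in edgeR) with the gap in the fit.

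That record lies in the row after ENSDART00000165606.2, the most abundant member. The files do not say whether neighbouring rows belong to the same gene. Of the summed CPM of this pair, ENSDART00000165606.2 took 73.6%, 72.1% and 75.2% in ttna+/- 1 to 3, against 82.4%, 80.6% and 73.4% in WT 1 to 3. WT 3 lay within the ttna+/- range on this measure, so the share overlapped between genotypes where the level of ENSDART00000149737.4 did not.

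Other, rarer members were also higher in every ttna+/- library. ENSDART00000143265.4, of 15297 bases, had 4.03, 4.18 and 10.5 CPM in ttna+/-, against 2.50, 2.25 and 2.15 CPM in WT. Its log2 fold change was 1.54 ± 0.45 (SE, unadjusted p = 0.0132 and adjusted p = 0.386 in edgeR), with ttna+/- 3 well above the other libraries of its genotype. ENSDART00000182024.1, of 17694 bases, had 4.79, 3.31 and 4.94 CPM in ttna+/-, against 2.04, 3.28 and 2.00 CPM in WT. There the groups only just failed to overlap, and the log2 fold change of 0.90 ± 0.31 (SE) had an adjusted p of 0.439 in edgeR. The next row holds ENSDART00000160284.3, the longest member. This pair summed to 9.07, 3.67 and 8.69 CPM in ttna+/-, against 3.35, 4.17 and 2.54 CPM in WT, so the sum overlapped. ENSDART00000182024.1 took 52.8%, 90.3% and 56.8% of it in ttna+/- and 60.9%, 78.6% and 78.8% in WT.

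The other 2 members with the smallest p among those higher overlapped between genotypes. ENSDART00000151125.2, of 13210 bases, had 34.3, 2.35 and 30.9 CPM in ttna+/-, against 6.13, 2.75 and 2.36 CPM in WT. Its ttna+/- 2 value was the lowest of all 6, so the log2 fold change of 2.68 ± 0.95 (SE, adjusted p = 0.443 in edgeR) rested on ttna+/- 1 and 3. DESeq2 gave this record an adjusted p of 0.0441. ENSDART00000162761.2, of 12519 bases, had 63.8, 15.4 and 42.1 CPM in ttna+/-, against 24.0, 9.02 and 13.5 CPM in WT, with an adjusted p of 0.455 in edgeR.

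Among the members lower in ttna+/-, ENSDART00000132471.4, of 12344 bases, had the smallest p. It had 2.53, 2.50 and 3.25 CPM in ttna+/- 1 to 3, against 6.59, 5.26 and 4.48 CPM in WT 1 to 3. Every ttna+/- library lay below every WT library, and the log2 fold change was -0.89 ± 0.23 (SE, unadjusted p = 0.00818 and adjusted p = 0.356 in edgeR).

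ENSDART00000051679.8, of 12981 bases, had 14.0, 12.1 and 7.97 CPM in ttna+/-, against 20.0, 21.1 and 17.3 CPM in WT. ENSDART00000192298.1, of 12179 bases, had 3.95, 4.09 and 0.978 CPM in ttna+/-, against 12.7, 8.66 and 6.24 CPM in WT. Neither overlapped between the genotypes. Their log2 fold changes were -0.71 ± 0.22 and -1.54 ± 0.55 (SE), with adjusted p of 0.403 and 0.443 in edgeR.

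ENSDART00000172800.2, of 12562 bases, was the most abundant of the members without overlap that were lower, at 72.4, 65.9 and 74.8 CPM in ttna+/-, against 96.3, 94.0 and 83.6 CPM in WT. The difference was steady but small, with a log2 fold change of -0.28 ± 0.14 (SE, adjusted p = 0.523 in edgeR). ENSDART00000014149.11, of 16416 bases, had 0.913, 1.07 and 1.38 CPM in ttna+/-, against 1.39, 1.61 and 8.17 CPM in WT. Its log2 fold change of -1.66 ± 0.76 (SE) was -0.33 without WT 3, and ttna+/- 3 and WT 1 had nearly equal values.

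**Figure D3:**
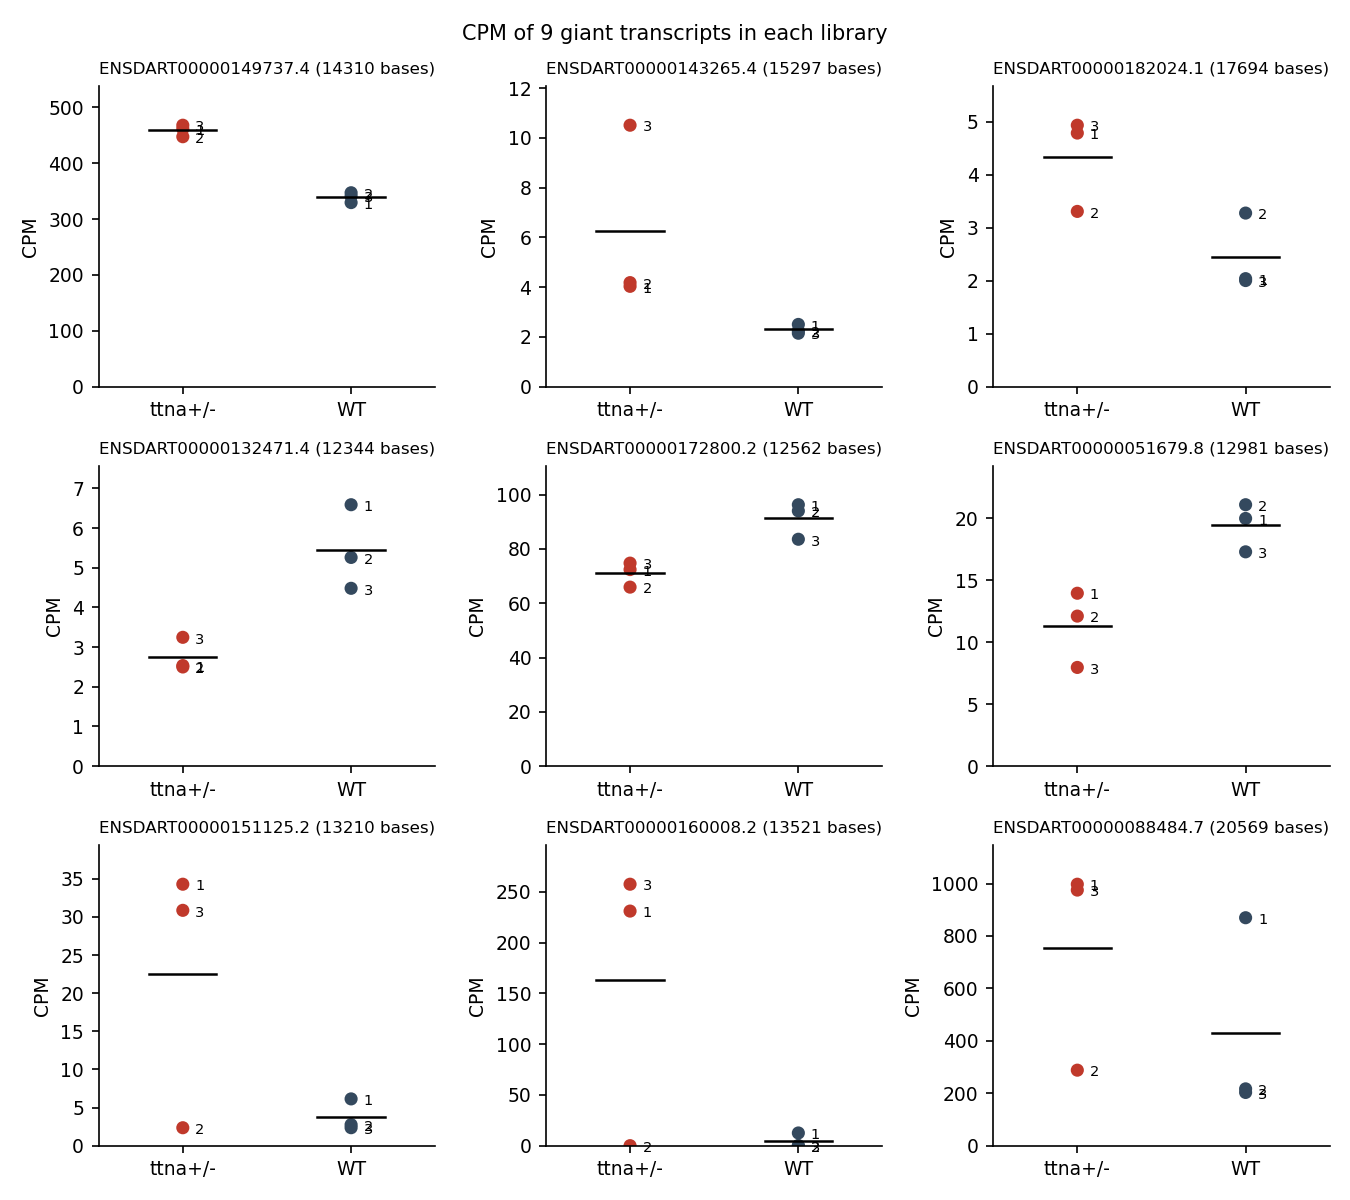
CPM of 9 giant transcripts in each ttna+/- library (red) and WT library (dark), numbered by replicate, with the genotype mean as a line. The upper 2 rows show members without overlap between genotypes, such as ENSDART00000149737.4 at 447 CPM or more in ttna+/- and 347 CPM or less in WT, and the bottom row shows members that follow the library split.

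Among members averaging 5 CPM or more, the largest log2 fold changes belonged to members that were high in ttna+/- 1 and 3 and low in ttna+/- 2. ENSDART00000160008.2, of 13521 bases, had 231 and 257 CPM in ttna+/- 1 and 3 and 12.5 CPM in WT 1, and was listed at 0 in ttna+/- 2, WT 2 and WT 3, where 3 counts would be 0.0735, 0.0879 and 0.0918 CPM. The model gave a log2 fold change of 5.45 ± 2.94 (SE, adjusted p = 0.542 in edgeR), a value that depends on how counts of 0 are treated. ENSDART00000151234.2, of 19233 bases, had 187, 17.0 and 234 CPM in ttna+/-, against 54.9, 16.3 and 25.1 CPM in WT. In it, and in ENSDART00000052915.8 with 66.1, 5.28 and 65.0 CPM in ttna+/-, against 28.7, 6.57 and 5.74 CPM in WT, the value of ttna+/- 2 lay inside or below the WT range. Their log2 fold changes were 2.30 ± 0.94 and 1.85 ± 1.03 (SE), with adjusted p of 0.470 and 0.549 in edgeR.

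At the other end, 3 of the 5 members with the most negative values overlapped between the genotypes. ENSDART00000172634.2, of 14964 bases, had 21.4, 0.0216 and 8.59 CPM in ttna+/-, against 60.1, 17.9 and 16.7 CPM in WT. It lies in the row after ENSDART00000147464.4, and this pair summed to 241, 183 and 206 CPM in ttna+/-, against 248, 201 and 121 CPM in WT. The sum overlapped between genotypes. Of it ENSDART00000147464.4 took 91.15%, 99.99% and 95.82% in ttna+/-, against 75.74%, 91.08% and 86.23% in WT. Whether the records trade counts was not tested. ENSDART00000010526.10, of 13845 bases, had 3.81, 0.763 and 7.99 CPM in ttna+/-, against 9.17, 14.4 and 4.76 CPM in WT. ENSDART00000020389.7, of 16851 bases, had 9.14, 6.48 and 10.4 CPM in ttna+/-, against 20.0, 17.1 and 4.24 CPM in WT. All 3 were uneven within a genotype, as was ENSDART00000192298.1, given above, within ttna+/-. The log2 fold changes of the 3 were -1.58, -1.08 and -0.57, with adjusted p of 0.688, 0.641 and 0.701 in edgeR.

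DESeq2, whose approach the design text names, called 2 of the 120 members it gave an adjusted p, under the same limits. Its share over all transcripts with an adjusted p was 1.29%, so 2 of 120 is near that background. With no limit on the fold it called 3, among them ENSDART00000149737.4, against 1.75% of all. Past the 2-fold limit were ENSDART00000151125.2, given above, and ENSDART00000015820.10. The record ENSDART00000015820.10, of 25953 bases, did not pass the filter of edgeR. It was at 0, 0.0670 and 0.0635 CPM in ttna+/- 1 to 3, each under 3 counts, and at 10.7, 5.70 and 0.0786 CPM in WT 1 to 3. WT 3 was also under 3 counts, so the record reached 3 counts in 2 of 6 libraries and the groups were separated only by values below the floor. The record met the 1 CPM limit only through WT, with a mean of 5.48 CPM against 0.0435 CPM in ttna+/-. Its difference is thus tied to the selection. DESeq2 gave it an adjusted p of 0.000417, and edgeR without the filter one of 0.50.

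The other 3 members outside the edgeR filter likewise had high values in 1 or 2 libraries. ENSDART00000153708.3, of 16267 bases, had 17.1 CPM in WT 3 and at most 0.168 CPM elsewhere. ENSDART00000011953.8, of 16598 bases, had 2.66 CPM in ttna+/- 2 and 3.61 CPM in WT 1, and ENSDART00000187629.1, of 12264 bases, 5.45 CPM in WT 1 and 2.46 CPM in WT 3. In all 3 the genotypes overlapped. ENSDART00000153708.3 and ENSDART00000187629.1 also met the 1 CPM limit only through WT, so their differences are tied to the selection.

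The libraries lay further apart in the giant transcripts than in shorter ones. For each record the highest library was divided by the lowest, with values under 3 counts set to 3 counts, so that such ratios are lower bounds. The median ratio was 3.73-fold in the 125 members, against 2.02-fold in the 4144 transcripts of 4000 to 8000 bases and 2.03-fold in all 22555 records averaging 1 CPM or more. A range over 10-fold was seen in 24.8% of members, 8.81% of the 4000 to 8000 base records and 6.90% of all. All records share the 6 libraries, so these shares are given as a description with no test.

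Low counts alone widen such ranges, so the same was computed for records that averaged 10 CPM or more. There the median ratio was 2.86-fold in 78 members, 1.78-fold in 1842 transcripts of 4000 to 8000 bases and 1.73-fold in all 8113 records. Over 10-fold lay 15.4% of these members, 3.58% of the 4000 to 8000 base records and 2.66% of all.

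**Figure D4:**
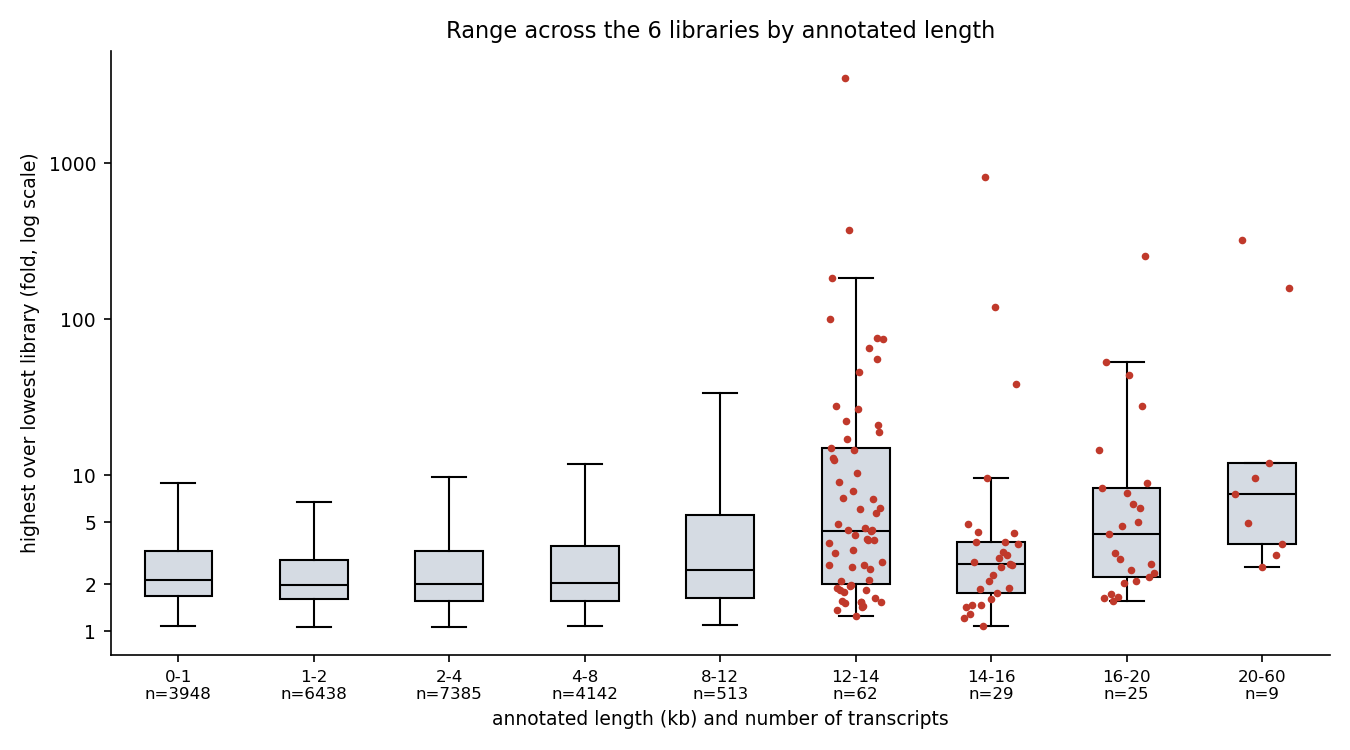
Highest over lowest library for each record with a mean of at least 1 CPM, by annotated length (boxes show quartiles and the median, whiskers reach to 1.5 times the box height, log scale), with each giant transcript as a red point. The median is 2.02-fold at 4000 to 8000 bases, 2.48-fold at 8000 to 12000 and 4.40-fold at 12000 to 14000, and the giant transcripts run from 1.08-fold to over 1000-fold.

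The spread was not a simple function of length within the members. The median range was 4.40-fold up to 14000 bases, 2.69-fold from 14000 to 16000, 4.17-fold from 16000 to 20000 and 7.52-fold in the 9 over 20000 bases. Abundance differed between these classes too, with median levels of 13.1, 41.1, 19.8 and 7.66 CPM.

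The direction of the spread was shared by many members. The 3 highest libraries were ttna+/- 1, ttna+/- 3 and WT 1 in 60 of 125 members, and in 0 members were these the 3 lowest. Among transcripts of 4000 to 8000 bases they were the highest in 33.6% and the lowest in 3.55%, and among all records in 21.8% and 10.1%. In records of 8000 to 12000 bases, the class nearest in length, they were the highest in 42.5% and the lowest in 1.56%. The split was thus not particular to the giant transcripts. For records averaging 10 CPM or more the share of highest was 61.5% of members, 39.6% of the 4000 to 8000 base records and 23.4% of all. The 3 libraries were picked from these data, so the shares are a description.

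The median member stood at 119%, 63.7% and 117% of its own 6-library mean in ttna+/- 1 to 3, against 121%, 80.8% and 67.2% in WT 1 to 3. For transcripts of 4000 to 8000 bases the figures were 107%, 84.1% and 102% in ttna+/- and 113%, 92.0% and 89.4% in WT. In the 9 members over 20000 bases they were 169%, 48.7% and 154% in ttna+/- and 124%, 48.2% and 52.3% in WT. The same 3 libraries were high in each of the 3 classes, and the distance between the high and the low libraries was widest in the longest. The median level of those 9 was only 7.66 CPM. They include ENSDART00000160284.3 and ENSDART00000152768.3, which met the CPM limit only through ttna+/-, and ENSDART00000015820.10, which met it only through WT. The width in this class is thus partly tied to the selection and to low levels.

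**Figure D5:**
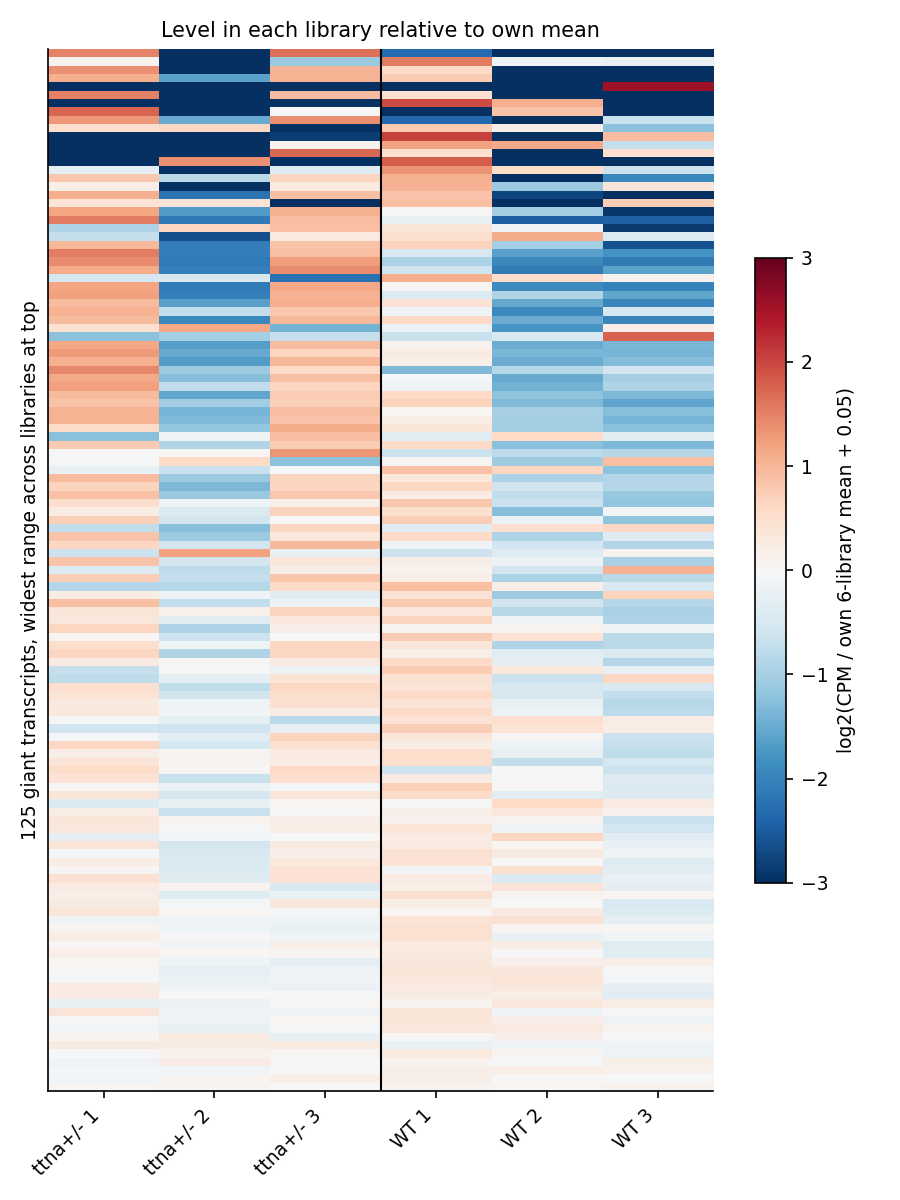
Level of each of the 125 giant transcripts in each library, as log2 of the CPM over the record's own 6-library mean plus 0.05, ordered from the widest range at the top to the narrowest at the bottom. Many rows in the upper part are red in ttna+/- 1, ttna+/- 3 and WT 1 and blue in ttna+/- 2, WT 2 and WT 3, while the lowest rows are nearly white in all 6 libraries.

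Not every giant transcript took part. In 10 members the range was under 1.5-fold, 8.0% of them, against 20.8% of the 4000 to 8000 base records. The following were singled out after their values were seen. ENSDART00000190268.1, of 14090 bases, had 10.6, 10.7 and 10.1 CPM in ttna+/-, against 10.9, 10.5 and 10.9 CPM in WT, the narrowest range of all members at 1.08-fold. ENSDART00000157328.3, of 15893 bases, had 80.5, 90.5 and 98.4 CPM in ttna+/-, against 97.1, 85.6 and 83.7 CPM in WT. ENSDART00000173560.2, of 13930 bases, kept to 36.6, 38.9 and 38.3 CPM in ttna+/-, against 44.7, 38.0 and 32.7 CPM in WT.

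Other records of similar length varied widely. ENSDART00000167440.2, of 16288 bases, stood at 80.2, 10.4 and 76.1 CPM in ttna+/-, against 43.1, 12.0 and 14.1 CPM in WT. ENSDART00000054274.6, of 16194 bases, stood at 77.7, 6.23 and 67.8 CPM in ttna+/-, against 66.4, 3.69 and 2.80 CPM in WT. In both, the WT 1 value was far above those of WT 2 and WT 3, which was not so in ENSDART00000157328.3.

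Counts under 3 occurred in at least 1 library in 17 members, and 108 members had 3 or more counts everywhere. In ttna+/- 1 to 3 there were 5, 10 and 5 members under 3 counts, and in WT 1 to 3 there were 1, 10 and 7. The shallowest library, WT 1, had the fewest. In 3 members the libraries under 3 counts were ttna+/- 2, WT 2 and WT 3 and no others.

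Neighbouring rows of the table held 12 pairs of members. In some pairs the split of the counts was similar in every library, as for ENSDART00000076796.7 and ENSDART00000076764.7, where the first took 42.8%, 32.4% and 42.7% of the pair in ttna+/- and 36.1%, 39.6% and 42.4% in WT. In others 1 record was absent from some libraries. Of the pair ENSDART00000148840.2 and ENSDART00000104525.5 the first took 74.4%, 100% and 78.5% in ttna+/- and 82.9%, 100% and 100% in WT. The pair summed to 106, 17.7 and 98.7 CPM in ttna+/- and to 91.9, 31.6 and 26.0 CPM in WT, so the total was also lowest in the libraries where the second record was missing. For ENSDART00000185291.1 and ENSDART00000189557.1, of 12618 and 12627 bases, the division of the counts varied more than their sum. The pair held 4.17, 4.54 and 4.08 CPM in ttna+/-, against 6.82, 3.28 and 2.84 CPM in WT, of which ENSDART00000189557.1 took 99.6% in ttna+/- 3, 60.7% in WT 3 and 25.3% in WT 1. Records that share sequence divide reads by estimate, and the tests leave this uncertainty out.

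At the limits of the rule, the shortest members were ENSDART00000182371.1 (12001 bases, mean of 19.3 CPM) and ENSDART00000127015.3 (12025 bases, 54.3 CPM). Just outside lay ENSDART00000190242.1 (11994 bases, 3.13 CPM) and ENSDART00000138754.4 (11949 bases, 26.3 CPM). The rarest members, ENSDART00000181471.1 and ENSDART00000011953.8, averaged 1.02 and 1.04 CPM, and the records just under the limit, ENSDART00000181381.1 and ENSDART00000014024.10, 0.994 and 0.901 CPM. The longest record under 60000 bases had 45657 bases but a mean of only 0.0461 CPM, and the shortest record above the limit had 67298 bases and 3406 CPM.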

How the data were processed

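The authors deposited 1 table per library giving each transcript ID 2 lengths (annotated, effective), its estimated count and its TPM. Per the submitters' processing notes, TopHat2 2.1.1, Cufflinks 2.2.1 and Cuffdiff were among the tools, with no role given. No source used here names the program that wrote these tables or its annotation. The deposited TPM equalled estimated count over effective length, rescaled, to a relative difference of 9.78e-06. Paired-end reads were 50 bases long, per the labels.

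Estimated counts were rounded and tested on the whole table with edgeR 4.0.16 in R 4.3.3 (quasi-likelihood, TMM, filterByExpr with a minimum count of 10, robust, genotype as the only term). The SE is the log2 fold change over the square root of F. Alternatives used DESeq2 1.42.0, limma 3.58.1, other scalings, filters, terms and members, and each library left out. The test was tried on simulated counts, drawn independently for each library. They lacked the library split described above, so the trial does not bear on it. Members and lists were chosen with earlier results of these data known. Named transcripts were the 10 highest by TPM, the 5 longest, the 5 with the smallest p in each direction, and, at 5 CPM or more, the 5 largest log2 fold changes in each direction. The alternative with the length trend removed, the count at an unadjusted p and the TMM-scaled overlap were added after the data were seen. Replicates were separate pools, per the labels.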

Additional observations from a re-analysis of the deposited data

Results flagged for a closer look

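The fragment-size gap (annotated minus effective length), a property of the tables other than a transcript's level, stood at a mean of 168.4 bases in the ttna+/- libraries, against 157.9 bases in WT, the control, and was flagged because it was higher in all 3 ttna+/- libraries than in any control library. The difference was 10.47 bases. With the gap as a term the giant transcripts' median log2 fold change was 0.88, against 0.33 without it, and with effective length as an offset it was 0.33. The gap and the genotype can hardly be told apart in 6 libraries, so 0.88 is no estimate corrected for fragment size. The fit with the gap gave ENSDART00000160008.2 a log2 fold change of 19.9.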

How the results depend on the processing

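The count of 0 giant transcripts called held in edgeR and limma under every alternative, also without any 1 library (range 0 to 0), while DESeq2 called 2. The number at an unadjusted p under 0.05 was 11, or 9.09%, against 12.1% of all fitted records averaging 1 CPM or more. In DESeq2 it was 25 (20.0% against 13.7%) and in limma-voom 7 (5.79% against 12.1%). In limma on log2(TPM + 1) and log2(TPM + 0.1) it was 4 and 3 (3.31% and 2.48%, against 12.4% and 12.5%). In the main edgeR fit it was 5 among the 60 members over 14000 bases, with the same 12.1% of all fitted records averaging 1 CPM or more beside it. With 1 library left out it ran from 5 (4.03% against 7.62%) to 37 (30.1% against 19.7%). The median log2 fold change, 0.33, and its difference from the 4000 to 8000 base median, 0.24, became 0.88 and 0.60 once the length gap was a term; with 1 library left out they ran from 0.11 to 0.61 and from 0.07 to 0.45. With TMM factors 6 members (4.8%), not 10 (8.0%), were lower in ttna+/- without overlap, against 12.0% and 17.1% of all records averaging 1 CPM or more. With each library's trend on length removed the median log2 fold change and the difference were 0.10 and 0.11. The ratio of the giant sum to the 4000 to 8000 base sum, 1.08, ran from 0.979 to 1.19 with 1 library left out. The cause of these shifts was not tested.

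Of 30 named transcripts, 24 kept their direction under all alternatives run. Many of them were picked for a small p or a large fold change in these same libraries, so a kept direction is no independent support. ENSDART00000165606.2 reversed with library totals (-0.022) and the length trend removed (-0.24), and ran from -0.12 to 0.18 with 1 library left out. ENSDART00000110770.4 reversed with the length trend removed (-0.018). With the length gap as a term, ENSDART00000148520.3 was at -0.17, ENSDART00000020389.7 at 0.85 and ENSDART00000172634.2 at 0.0031. ENSDART00000152847.2 ran from -0.57 to 0.18 with 1 library left out. No replicate pairing was seen: deviations of same-numbered libraries correlated at 0.24, 0.20 and -0.20, and ttna+/- 1 and 3 both correlated with WT 1 (0.24 and 0.25). With the replicate block 0 members were called and the median log2 fold change was 0.37. In that fit 11 members (9.09%) were at an unadjusted p under 0.05, against 13.5% of all fitted records averaging 1 CPM or more.

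Groups of 3 libraries and records below a few CPM limit what these data can show.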
